A study of Homo sapiens with 26 samples.

Results

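In acidic medium, 132 genes kept their level relative to neutral medium on average over 4, 8 and 12 h, though most were below it at 12 h. By the end of the second day these genes were far below it. They were chosen by a rule on the measured values. A member had a mean of at least 5 FPKM (fragments per kilobase and library depth, a level corrected for transcript length) over the 13 libraries of neutral medium. Its difference d, the log2(FPKM + 1) at pH 6.3 minus that at pH 7.4 at the same hour, averaged -0.25 or more over 4, 8 and 12 h and -1.5 or less over 40, 44, 48 and 52 h. Symbols of zinc finger, histone, mitochondrial, ribosomal, proteasome, collagen, MCM and CXCL genes were left out. The 132 members came from 8528 genes that met the level and the symbol conditions, among 19704 symbols in all. Another 151 of these genes were as low late but were already lower early, and 5122 were kept early and not lost late.

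Among the members are genes for matrix, adhesion and cytoskeletal proteins. Matrix proteins are secreted and built into a scaffold, which cells grip through integrins, syndecans and other adhesion molecules, while formins, myosins and thymosins organise the actin filaments inside. Tumours can make the fluid around them acidic by releasing protons and lactate, and cells sense such a change at the surface. The members also include regulators of the protein kinase A and WNT pathways, transcription factors of development, lysosomal enzymes and genes of DNA synthesis.

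The RNA came from U2OS cells, an established human osteosarcoma (bone tumour) line, here with a luciferase reporter under the Arntl promoter, Arntl being a core clock gene. Cells were harvested at intervals of 4 h from 4 to 52 h after the change of medium, which gave 13 libraries at pH 6.3 and 13 at pH 7.4, a single one for each medium and hour. All cells of both groups carried the reporter and received 0.1 µM dexamethasone, a synthetic glucocorticoid, with 5% serum and the buffers PIPES and HEPES (25 mM each), in sealed dishes without added carbon dioxide. The 4 to 24 h libraries came from one set of plates and the 28 to 52 h libraries from another, so later time and plate set cannot be told apart.

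Each medium was sampled once per hour, and the p-values below therefore rest on the scatter across hours rather than across cultures. Depth, judged from the steps between low values, was 19.6 to 35.7 M (mega) fragments in 24 libraries on a scale that may be off by a whole-number multiple, 11.1 M at pH 6.3 at 8 h and 9.71 M at pH 7.4 at 12 h, so the early differences rest partly on shallow libraries. In a few libraries the level of a gene followed the GC content of its transcript. The correlation of the deviation with GC content across genes was 0.55 at pH 6.3 at 20 h, higher still at pH 7.4 at 28 h, and -0.53 and -0.616 at pH 7.4 at 44 and 48 h. Of 12 osteoblast and mesenchymal markers 7 averaged at least 1 FPKM in both media, and the mature osteoblast markers BGLAP, IBSP and SP7 stayed below 1 FPKM in every library. In RNA from a whole dish, fewer cells of a kind and less RNA per cell cannot be told apart.

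Over the members as a whole, the difference between media opened during the first day and was close to its full size by 32 h. The median d was 0.30 at 4 h, 0.19 at 8 h and -0.32 at 12 h, hours that chose the members. At the hours left out of the early and late means of d, it was -0.78 at 16 h, -1.09 at 20 h and -1.38 at 24 h. It was -1.45 at 28 h, -1.67 at 32 h and -1.76 at 36 h. It then lay between -1.96 and -1.72 from 40 to 52 h. The early balance was thus a passage from above to below neutral medium: 111 of the 132 members were above it at 4 h and 101 were below it at 12 h. The 151 genes that were already lower early had a median d of -0.67 at 8 h and -1.46 at 12 h, and the 2 sets had like medians from 28 h on, -1.45 for the members and -1.41 for the 151 at that hour.

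**Figure D1:**
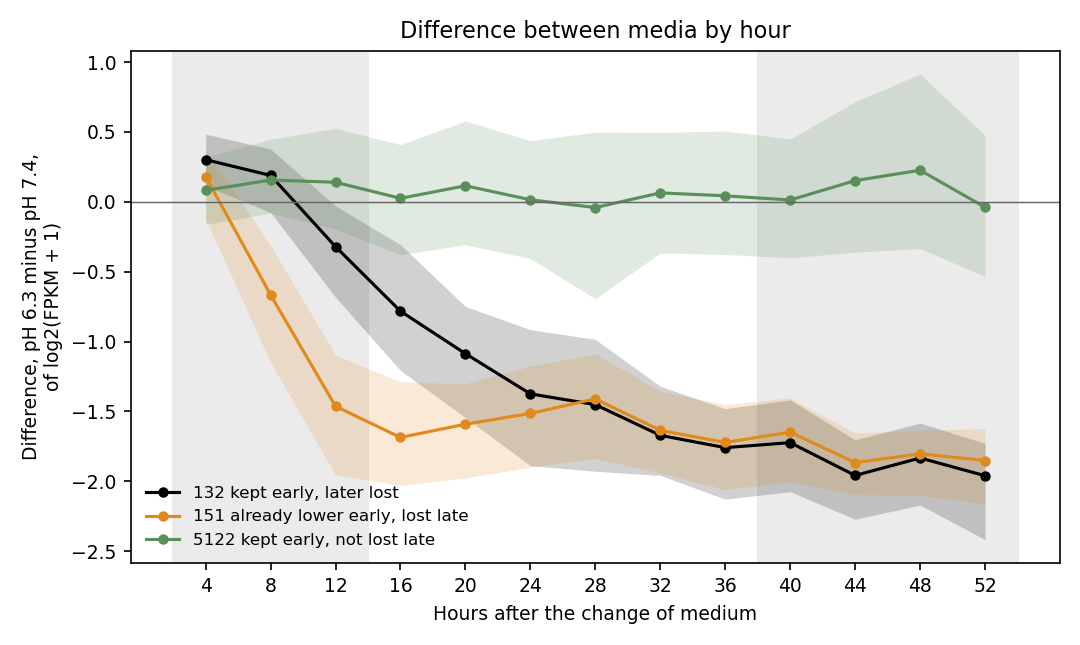
Median difference between media, pH 6.3 minus pH 7.4 on the log2(FPKM + 1) scale (vertical axis), by hours after the change of medium (horizontal axis), for the 132 members, the 151 genes already lower early and the 5122 genes kept early and not lost late. Bands span the quartiles over genes, and the grey areas mark the hours whose differences chose the members. The white area from 16 to 36 h, where the member median fell to -1.76, entered the choice only through the mean pH 7.4 level.

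The members differed in when they fell. The first hour from which d stayed at or below -1 to the end was 12 h in 9 members, 16 h in 29, 20 h in 21 and 24 h in 19. It was 28 h in 9 members, 32 h in 18, 36 h in 7 and 40 h or later in 18. The last count includes members such as E2F1, whose d was -1.402 at 16 h but -0.768 at 48 h. In BARD1, which codes for the partner of BRCA1, and in XYLB, a xylulose kinase, d did not stay at or below -1 through 52 h. RAB11FIP4 and MARCKSL1 reached that difference by 12 h, and AGA and HAPLN1 at 40 h.

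**Figure D2:**
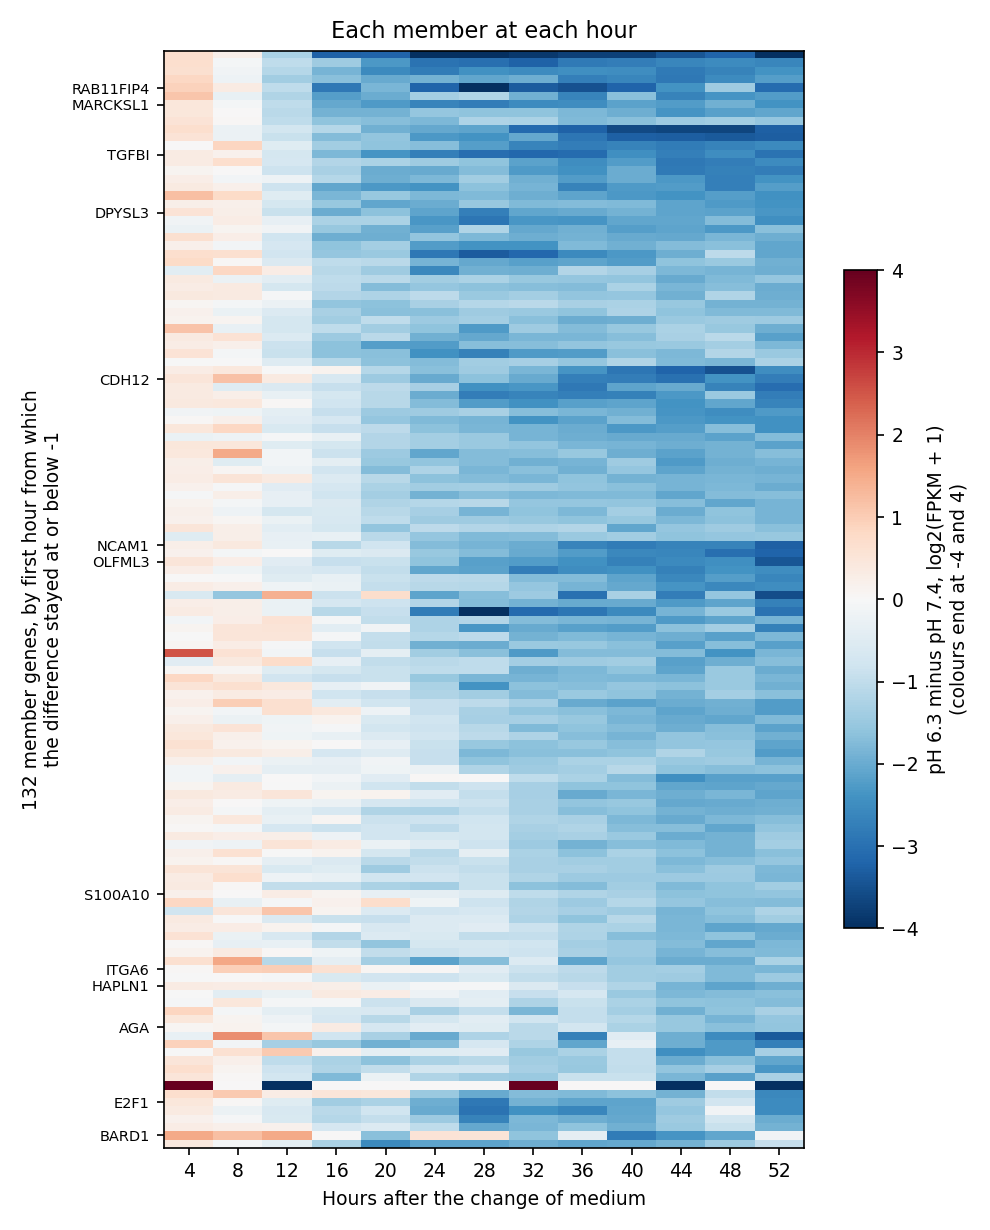
Difference between media (colour, pH 6.3 minus pH 7.4, log2(FPKM + 1)) for each of the 132 members (rows) at each hour (columns), ordered by the first hour from which the difference stayed at or below -1. Most rows pass from pale red at 4 h to blue, the upper rows by 16 h. The lowest rows hold late-falling members and also members such as E2F1 and GSN, which were blue earlier but above -1 at 48 h. BAGE5 is the row near the bottom with single cells of full colour.

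At the hours the rule did not use, nearly all members were lower in acidic medium. At 16 to 24 h, limma with Benjamini-Hochberg adjustment over 11838 genes at 0.05 called 105 of the 132 members lower, against 29.7% of all genes tested. The median difference of the members was -1.10, against -0.144 over all genes. At 28 to 36 h it called 130 members lower, against 29.9% of all genes, with medians of -1.66 for members and -0.145 for all genes. Over all 6 hours 125 members were lower, against 35.6%, with a median of -1.38. No member was called higher in any of the 3 comparisons, and none was higher at an unadjusted p under 0.05, while 15.4%, 19.3% and 20.5% of all genes were called higher at 16 to 24 h, 28 to 36 h and 16 to 36 h. These hours lie between those whose differences chose the members. The counts describe the members and set nothing apart from a list chosen in another way.

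The pattern was also visible hour by hour. In 111 members pH 6.3 was lower at 6 of 6 hours, against 31.6% of all genes. In 101 members every pH 6.3 value from 16 to 36 h lay below every pH 7.4 value, against 24.1%. The 5122 genes kept early and not lost late had medians of 0.06 at 16 to 24 h and 0.01 at 28 to 36 h. The 7 members not called over the 6 hours were ANXA3, BAGE5, BARD1, HAPLN1, ITGA6, PIK3R1 and ST6GALNAC5, and the 2 not called at 28 to 36 h were BAGE5 and BARD1.

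The difference was lower in the later window than in the earlier one in most members, and the test of that change called none of them. Tried on simulated data, this test did not call changes of the members' typical size, so its count of 0 does not show that members stayed level between the windows. The difference at 28 to 36 h minus that at 16 to 24 h was below 0 in 117 of 132 members, with a median of -0.56 against 0.03 over all genes and -0.003 in the 151 genes already lower early. None of the members was called by limma (0.00845% of all genes were called lower), the smallest adjusted p among members being 0.152, and 57 members had an unadjusted p under 0.05 in the lower direction. Without the hour as a block 15 members were called lower, against 0.515% of all genes. The lowest values were those of ATP13A2 (-1.77), CCL24 (-1.65) and L1CAM (-1.58). Their transcripts are GC-rich (64.3%, 57.8% and 60.05%, against a median of 46.7% over expressed genes). GC-rich transcripts were high at pH 6.3 at 20 h and at pH 7.4 at 28 h, and the part of this in these values was not tested.

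Medium by medium, the later window was lower at pH 6.3 in 29 members and higher in none by limma, against 3.33% of all genes called lower, with 60 members lower and 2 higher at an unadjusted p under 0.05. OLFML3, TGFBI and FXYD6 were among these 29. The count rested on the hours: it was 0 when the 16, 20, 32 or 36 h pair was left out and 53 without the 24 h pair. At pH 7.4 none of 131 members was called in either direction, as was none of all genes tested (0.0%), with 32 members higher and 1 lower at an unadjusted p under 0.05. BAGE5 had no value at pH 7.4 in this comparison, since it was at 0 in all 6 libraries.

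**Figure D3:**
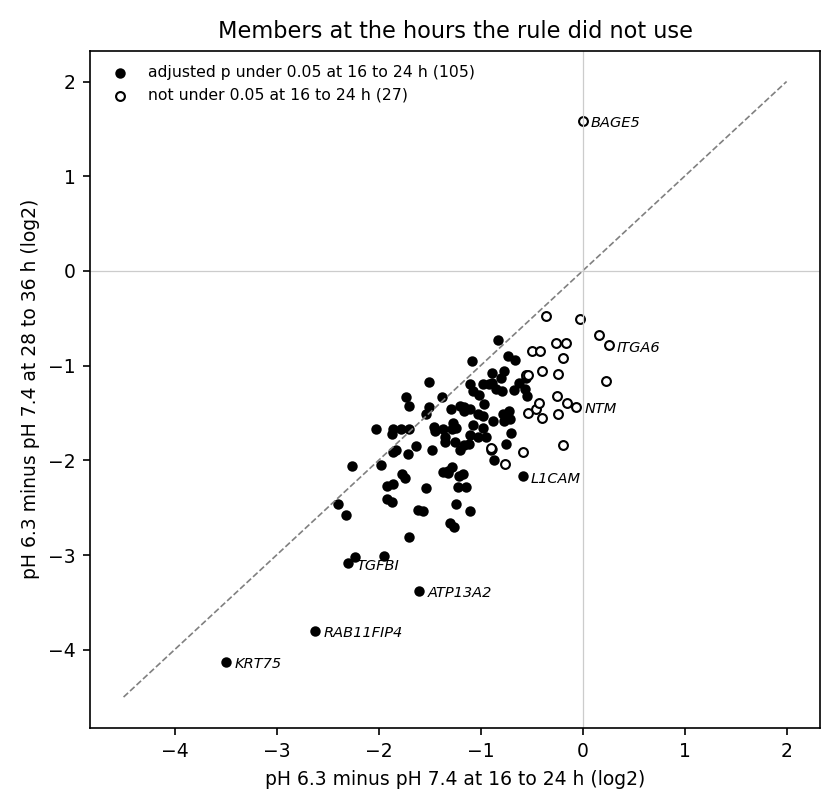
Difference between media at 16 to 24 h (horizontal axis) and at 28 to 36 h (vertical axis), pH 6.3 minus pH 7.4 on the log2(FPKM + 1) scale, for each of the 132 members. Filled points are the 105 members called lower at 16 to 24 h and open points the other 27; most points lie below the dashed line of equal differences, and BAGE5 is the only one above 0 at 28 to 36 h.

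The word lost fits the members to different degrees, since d falls when the pH 6.3 level falls or when the pH 7.4 level rises. From 4 to 12 h to 40 to 52 h, hours that chose the members and so given without a test, the median change was -1.41 at pH 6.3 and 0.53 at pH 7.4. Over all 8528 expressed genes these medians were 0.07 and -0.01. The pH 6.3 level was lower late in 131 of 132 members and by 1 or more in 106, and a median of 73% of the growth of the difference came from pH 6.3. In 23 members, however, the rise at pH 7.4 exceeded the fall at pH 6.3, among them PXDN, NCAM1, FMNL2, MAP2K6, SOX9 and CXADR. EVI2A, a membrane protein gene inside an intron of NF1, was the single member whose pH 6.3 level was not lower late: it changed by 0.57 at pH 6.3 and by 2.23 at pH 7.4.

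**Figure D4:**
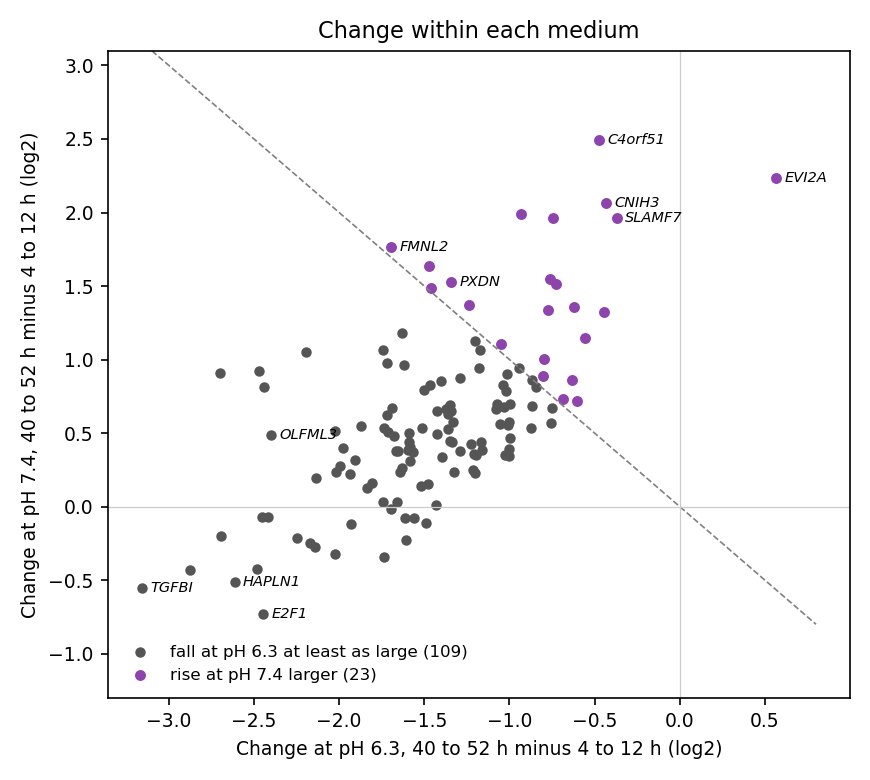
Change of the mean log2(FPKM + 1) at 40 to 52 h from that at 4 to 12 h within pH 6.3 (horizontal axis) and within pH 7.4 (vertical axis), for each member. Members above the dashed line, 23 in all, rose more at pH 7.4 than they fell at pH 6.3; TGFBI, at -3.16 and -0.55, had the largest fall at pH 6.3 and EVI2A, at 0.57 and 2.23, lies right of 0.

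Of the 132 members, 96 were placed in 12 groups by what they are known to do. These groups were formed after the values were seen, so their counts describe them without a test, and a member may stand in more than 1 group. Of all 132 members 79.5% were called lower at 16 to 24 h and 98.5% at 28 to 36 h, so a group with all or nearly all of its members called is near the share of the whole set.

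Matrix and secreted proteins were a group of 12 members, of which 9 were called lower at 16 to 24 h and all 12 at 28 to 36 h, with differences at 28 to 36 h from -3.09 to -0.51. PXDN, which codes for peroxidasin, the enzyme that cross-links collagen IV, lies on chromosome 2 (1631887 to 1744852, minus strand, GRCh38). At 16, 20 and 24 h it had 46.5, 50.9 and 33.9 FPKM at pH 6.3, against 65.5, 77.0 and 99.9 FPKM at pH 7.4. At 28, 32 and 36 h it had 34.9, 34.2 and 30.2 FPKM at pH 6.3, against 119, 142 and 147 FPKM at pH 7.4. The 6 values of each medium did not overlap, pH 7.4 rising through the window while pH 6.3 drifted down. The differences were -0.87 ± 0.21 (limma SE, 3 hours) at 16 to 24 h, adjusted p = 0.0115, and -2.0 ± 0.21 at 28 to 36 h, adjusted p = 0.00036.

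TGFBI codes for a secreted adhesion protein that is induced by TGF-beta and binds collagens and integrins (chromosome 5, 136028895 to 136063818, plus strand). It had 241, 180 and 104 FPKM at pH 6.3 at 4, 8 and 12 h, against 190, 158 and 170 FPKM at pH 7.4. At 16, 20 and 24 h it had 46.5, 33.4 and 24.3 FPKM at pH 6.3, against 165, 174 and 166 FPKM at pH 7.4, and it then stayed at 14.3 to 21.0 FPKM at pH 6.3. The groups did not overlap from 12 h on, and the pH 7.4 level drifted down as well. The difference was -2.29 ± 0.16 at 16 to 24 h (limma, adjusted p = 0.000181) and -3.09 ± 0.16 at 28 to 36 h (adjusted p = 0.000114).

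OLFML3, a secreted olfactomedin-like protein, fell more slowly. It had 32.4, 33.8 and 22.1 FPKM at pH 6.3 at 16, 20 and 24 h, against 62.2, 64.0 and 69.5 FPKM at pH 7.4, and 6.13 FPKM against 76.2 FPKM at 52 h. HAPLN1, a link protein that fastens proteoglycans to hyaluronan, was among the most abundant members and one of the last to part. It had 237, 150 and 152 FPKM at pH 6.3 at 16, 20 and 24 h, against 201, 180 and 157 FPKM at pH 7.4, groups that overlap. The difference was -0.03 ± 0.17 at 16 to 24 h (limma, adjusted p = 0.917) and -0.51 ± 0.17 at 28 to 36 h (adjusted p = 0.0401), a call lost under 6 alternatives, among them no filter (adjusted p = 0.075), upper-quartile scaling (0.127) and leaving out the 36 h pair (0.226). At 52 h it had 35.1 FPKM at pH 6.3, against 139 FPKM at pH 7.4. CYTL1, a cytokine-like protein of cartilage, chosen here after its values were seen, had differences of -0.74 and -1.51 in the 2 windows, adjusted p = 0.0141 and 0.000684 by limma, and the earlier call was lost without the 20 h pair (adjusted p = 0.0667) or the 24 h pair (0.0837).

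The stretch of 250 bases before the RefSeq start of 4 members is shown because these genes stand for different courses. PXDN stands for a rise at pH 7.4 and TGFBI for the largest fall at pH 6.3. FABP7 had 1 of the 4 lowest late differences, and E2F1 a lower late level in both media. The sequences are RefSeq's for GRCh38.p14, read 5′ to 3′ on the gene's own strand. Capitals mark matches on either strand to the GC box GGGCGG, the CCAAT box CCAAT, the cAMP response element core TGACG, the E2F site TTTCGCG and the NRF1 core GCGCATG, among 11 motifs searched.
PXDN: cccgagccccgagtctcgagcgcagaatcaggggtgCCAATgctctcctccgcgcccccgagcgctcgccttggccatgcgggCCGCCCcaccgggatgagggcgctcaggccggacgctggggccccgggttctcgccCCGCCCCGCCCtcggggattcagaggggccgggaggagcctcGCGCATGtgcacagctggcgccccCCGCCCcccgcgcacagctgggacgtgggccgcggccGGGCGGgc
TGFBI: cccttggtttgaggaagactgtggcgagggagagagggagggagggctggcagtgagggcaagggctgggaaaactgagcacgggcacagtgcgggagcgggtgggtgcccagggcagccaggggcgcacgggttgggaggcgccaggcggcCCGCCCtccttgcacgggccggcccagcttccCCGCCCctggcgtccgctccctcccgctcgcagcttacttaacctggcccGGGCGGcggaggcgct
FABP7: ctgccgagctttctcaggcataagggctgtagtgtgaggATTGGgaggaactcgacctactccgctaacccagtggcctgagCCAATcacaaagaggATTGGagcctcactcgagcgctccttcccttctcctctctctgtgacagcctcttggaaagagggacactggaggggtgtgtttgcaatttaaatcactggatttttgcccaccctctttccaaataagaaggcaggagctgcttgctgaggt
E2F1: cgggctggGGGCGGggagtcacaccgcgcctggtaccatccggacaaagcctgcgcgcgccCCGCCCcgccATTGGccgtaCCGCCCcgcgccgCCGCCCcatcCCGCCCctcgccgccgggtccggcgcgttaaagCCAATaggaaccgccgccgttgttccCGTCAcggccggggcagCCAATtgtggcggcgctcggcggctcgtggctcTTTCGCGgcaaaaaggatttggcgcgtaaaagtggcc
The windows lie on chromosome 2 (1744516 to 1744765) for PXDN, chromosome 5 (136028738 to 136028987) for TGFBI, chromosome 6 (122779466 to 122779715) for FABP7 and chromosome 20 (33686386 to 33686635) for E2F1. The RefSeq start differs from the GENCODE one used for the gene positions. By the GENCODE positions the PXDN window lies wholly inside the gene and the FABP7 window nearly so. Those of TGFBI and E2F1 reach into the gene in part. TGFBI held GC boxes alone and FABP7 CCAAT boxes alone, while E2F1 held GC boxes, CCAAT boxes, a cAMP response element core and the E2F site.

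A promoter entry was found for 100 of the 132 members and for 6679 of the expressed genes. The GC box stood in the window of 60% of members and 69.6% of expressed genes, the CCAAT box in 34.0% and 35.2%, the cAMP response element core in 22.0% and 31.7%, and the E2F site in 3.0% and 1.99%. The ETS core CCGGAAG stood in 8.0% of members and 17.8% of expressed genes, and in 10.2% of the 151 genes already lower early. The E-box CACGTG stood in 6.0% and 9.55%, the AP-1 site TGANTCA in 5.0% and 3.68%, the TEAD core GGAATG in 9.0% and 9.6%, the TATA box TATAAA in 6.0% and 4.6%, the NRF1 core in 4.0% and 7.23% and the YY1 core AAGATGG in 4.0% and 3.55%. Member promoters had a median GC content of 62.6% and 16.5 CG pairs, against 65.2% and 22.0 in all expressed genes. These shares are given without a test.

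Adhesion molecules and surface receptors were a group of 14 members, of which 10 were called lower at 16 to 24 h and all 14 at 28 to 36 h. Of a list of 94 tested genes of adhesion, cell surface and matrix, limma called 22 lower and 11 higher at 16 to 24 h and 46 lower and 6 higher at 28 to 36 h. These are 23.4% and 48.9% lower, against 29.7% and 29.9% of all genes, with list medians of -0.043 and -0.5 against -0.144 and -0.145. Of the list 8 genes are members: ITGA6, ITGB8, PCDHB5, NCAM1, L1CAM, NRP1, TGFBI and SDC1. NCAM1, the neural cell adhesion molecule (chromosome 11, 112961247 to 113278436, plus strand), had 4.11, 5.59 and 3.74 FPKM at pH 6.3 at 16, 20 and 24 h, against 9.94, 10.5 and 14.8 FPKM at pH 7.4. At 28, 32 and 36 h it had 5.16, 3.44 and 2.63 FPKM at pH 6.3, against 21.5, 16.7 and 21.5 FPKM at pH 7.4. Its values did not overlap, and the differences were -1.21 ± 0.22 and -2.16 ± 0.22, adjusted p = 0.00408 and 0.000369 by limma.

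NRP1, the semaphorin and VEGF co-receptor neuropilin 1, had 17.6, 15.8 and 13.2 FPKM at pH 6.3 at 28, 32 and 36 h, against 60.9, 61.9 and 56.0 FPKM at pH 7.4. Its difference was -0.89 ± 0.13 at 16 to 24 h and -1.88 ± 0.13 at 28 to 36 h (limma, adjusted p = 0.00143 and 0.000133), and it was one of the members lower in the later window at pH 6.3 itself. L1CAM, a neural adhesion molecule on the X chromosome, had 18.5, 13.7 and 12.6 FPKM at pH 6.3 at 28, 32 and 36 h, against 96.8, 58.2 and 60.2 FPKM at pH 7.4. Its highest value came from pH 7.4 at 28 h, a library in which GC-rich transcripts were high ; the part of this in the result was not tested, and without that library and pH 6.3 at 20 h L1CAM kept its direction. The call of L1CAM at 16 to 24 h (-0.59 ± 0.20, adjusted p = 0.0449 by limma) was lost under 8 of the alternatives tried.

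ITGA6, the integrin alpha 6 chain of laminin receptors, crossed over during the experiment. It had 17.2, 16.1 and 15.0 FPKM at pH 6.3 at 16, 20 and 24 h, against 10.8, 15.1 and 14.4 FPKM at pH 7.4, and at 28, 32 and 36 h 12.8, 11.7 and 11.1 FPKM at pH 6.3, against 17.7, 22.0 and 24.2 FPKM at pH 7.4. It was thus higher at pH 6.3 at each of the 3 earlier hours and lower at each of the 3 later ones, with differences of 0.26 ± 0.17 (limma, adjusted p = 0.264) and -0.79 ± 0.17 (adjusted p = 0.0079). The later call was lost without the 32 h pair (adjusted p = 0.05) or the 36 h pair (0.0569), and with the GC correction the earlier difference was called higher. The change between the windows, -1.04, had an adjusted p of 0.154. NTM, an adhesion molecule of the IgLON family named here after its values were seen, also parted late, with -0.06 and -1.44, adjusted p = 0.843 and 0.00161 by limma.

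The cadherins CDH12 and CDH18 took different courses. CDH12 had 9.0, 6.30 and 4.23 FPKM at pH 6.3 at 16, 20 and 24 h, against 14.7, 18.9 and 20.1 FPKM at pH 7.4, and 2.38 FPKM against 22.0 FPKM at 52 h. CDH18, chosen after its values were seen, had 6.56, 5.69 and 5.51 FPKM at pH 6.3 at 16, 20 and 24 h, against 22.0, 20.6 and 21.7 FPKM at pH 7.4, and 7.09 FPKM against 22.5 FPKM at 52 h. CDH12 went on falling at pH 6.3 whereas CDH18 was at its late level by 16 h. The syndecan SDC1, a heparan sulfate proteoglycan, and CXADR, the junction protein that serves as coxsackie and adenovirus receptor, had differences of -1.91 and -0.90 at 28 to 36 h, adjusted p = 0.000826 and 0.00207 by limma.

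The cytoskeletal group held both the most abundant member and the lowest differences. Of 14 members, 13 were called lower at 16 to 24 h and all 14 at 28 to 36 h. In a list of 84 tested genes of the actin cytoskeleton and contraction, 42 were lower and 2 higher over the 6 hours (50% lower, against 35.6% of all genes, with a median of -0.3 against -0.154), and TMSB4X and GSN are members. TMSB4X, thymosin beta 4, which holds actin monomers in reserve, had 466, 389 and 325 FPKM at pH 6.3 at 28, 32 and 36 h, against 860.1, 904 and 885 FPKM at pH 7.4, with a difference of -1.18 ± 0.14 (limma, adjusted p = 0.000569). KRT75, a hair follicle keratin, had 1.54, 2.51 and 1.34 FPKM at pH 6.3 at 16, 20 and 24 h, against 22.9, 31.3 and 37.4 FPKM at pH 7.4, and its differences of -3.49 ± 0.25 and -4.13 ± 0.25 were the lowest of all members in both windows (adjusted p = 0.000181 and 0.000126).

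MARCKSL1, an actin-regulating substrate of protein kinase C, reached its acid floor within a day. It had 91.1, 63.1 and 37.4 FPKM at pH 6.3 at 4, 8 and 12 h, against 65.6, 66.8 and 76.7 FPKM at pH 7.4, and from 16 to 52 h it lay between 13.4 and 21.1 FPKM at pH 6.3. Its differences were -2.32 ± 0.13 and -2.58 ± 0.13 (limma, adjusted p = 0.000144 and 0.000114). DPYSL3, a microtubule-associated protein of growing neurites, followed the same course, with 8.03, 10.6 and 6.99 FPKM at pH 6.3 at 16, 20 and 24 h, against 35.1, 35.3 and 33.3 FPKM at pH 7.4.

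FMNL2, a formin that elongates actin filaments at the cell edge, had 1.48, 0.999 and 1.05 FPKM at pH 6.3 at 16, 20 and 24 h, against 4.48, 6.54 and 7.43 FPKM at pH 7.4. At 40, 44, 48 and 52 h it had 0.44, 0.414, 0.544 and 0.493 FPKM at pH 6.3, against 16.7, 16.9, 18.5 and 13.3 FPKM at pH 7.4. At values this low the log2(FPKM + 1) scale understates the fold. GSN, gelsolin, which severs actin filaments, had 8.70, 6.73 and 6.41 FPKM at pH 6.3 at 28, 32 and 36 h, against 73.8, 40.4 and 44.4 FPKM at pH 7.4, but at 48 h, when the pH 7.4 library was low in GC-rich transcripts, it had 15.2 FPKM against 17.1 FPKM. LCP1, plastin 2, is an actin bundler and was also on the list of leukocyte markers. The summed level of that list, LCP1 included, was 8.49 to 19.0 FPKM at pH 6.3 and 14.2 to 40.9 FPKM at pH 7.4. Most of this sum was LCP1 itself, with 5.91 to 17.4 FPKM at pH 6.3 and 13.1 to 39.8 FPKM at pH 7.4. PTPRC, CD3E, CD14, CD79A, SPI1 and LYZ were below 1 FPKM in every library. LCP1 had a difference of -0.95 at 16 to 24 h and -1.76 at 28 to 36 h, adjusted p = 0.0101 and 0.000717 by limma, and the earlier call was lost without the 20 h pair (adjusted p = 0.0542) or the 24 h pair (0.0634). RAB11FIP4, an effector of the recycling GTPase RAB11 and chosen after its values were seen, had 5.05, 8.21 and 6.24 FPKM at pH 6.3 at 28, 32 and 36 h, against 145, 91.5 and 79.8 FPKM at pH 7.4. Its 145 FPKM and the 73.8 FPKM of GSN came from pH 7.4 at 28 h, a library in which GC-rich transcripts were high. The part of this in these values was not tested.

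Several members belong to the protein kinase A system, in which inhibitor peptides bind the catalytic subunit. PRKACB, a catalytic subunit chosen after its values were seen, had 2.98, 1.69 and 1.56 FPKM at pH 6.3 at 16, 20 and 24 h, against 10.4, 9.16 and 10.6 FPKM at pH 7.4. PKIA, an inhibitor of the kinase, had 2.10, 1.49 and 0.994 FPKM at pH 6.3, against 8.88, 9.09 and 6.44 FPKM at pH 7.4, at the same hours. PKIB, another inhibitor, named after its values were seen, had 32.4, 19.8 and 18.4 FPKM at pH 6.3, against 33.3, 39.4 and 41.6 FPKM at pH 7.4. The catalytic subunit and PKIA were lower at pH 6.3, with differences of -1.87 and -1.86 at 16 to 24 h, adjusted p = 0.000557 and 0.000402 by limma. PKIB had -0.71 (adjusted p = 0.0457), a call lost under 9 alternatives with adjusted p of 0.0592 to 0.225, and -1.57 at 28 to 36 h (adjusted p = 0.00175).

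Other kinases took different courses. MAP2K6, which activates p38 kinases, had 0.939, 0.526 and 0.126 FPKM at pH 6.3 at 16, 20 and 24 h, against 5.52, 3.54 and 4.52 FPKM at pH 7.4, and its pH 7.4 level was at 11.03 to 13.7 FPKM from 40 to 52 h. CAMK4, a calcium and calmodulin dependent kinase named after its values were seen, had differences of -0.98 and -1.53, adjusted p = 0.00174 and 0.00029 by limma. PIK3R1, the regulatory subunit of phosphoinositide 3-kinase, parted late: it had 28.4, 18.9 and 17.0 FPKM at pH 6.3 at 16, 20 and 24 h, against 21.8, 15.0 and 19.7 FPKM at pH 7.4. Its difference was 0.16 ± 0.16 (limma, adjusted p = 0.448) and then -0.68 ± 0.16 at 28 to 36 h (adjusted p = 0.0103), a call lost without the 32 h pair (0.078).

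In the WNT pathway, whose secreted ligands bind receptors of the frizzled and ROR families, 3 members were called lower in both windows. ROR1, a WNT5A receptor, had 1.80, 2.40 and 1.82 FPKM at pH 6.3 at 16, 20 and 24 h, against 9.04, 8.76 and 8.70 FPKM at pH 7.4, a difference of -1.72 ± 0.15 (limma, adjusted p = 0.000253). WLS, the carrier that brings WNT proteins to the surface, had 31.1, 24.0 and 19.6 FPKM at pH 6.3, against 46.1, 52.8 and 63.1 FPKM at pH 7.4, at those hours. RNF43, a ligase that removes frizzled receptors, was near 0 in the first neutral library. It had 6.81 FPKM at pH 6.3 and 0.365 FPKM at pH 7.4 at 4 h, and its pH 7.4 level was 8.43 FPKM at 52 h. From 4 to 12 h to 40 to 52 h it changed by -0.93 at pH 6.3 and by 1.99 at pH 7.4, so the rise was the larger part. Among 49 tested genes of WNT, Notch and Hedgehog signalling 23 were lower and 7 higher over the 6 hours (46.9% lower, against 35.6% of all genes, with a median of -0.427 against -0.154).

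Transcription factors of development among the members were SOX2, SOX9 and TCF4, from a list of 82 tested genes of which 34 were lower and 20 higher over the 6 hours (41.5% lower, against 35.6% of all genes, with a median of -0.179 against -0.154). SOX2, a factor of stem and neural progenitor cells, had 0.466, 0.421 and 0.414 FPKM at pH 6.3 at 28, 32 and 36 h, against 5.81, 7.87 and 8.59 FPKM at pH 7.4. SOX9, the master regulator of cartilage cells, had 28.3, 17.3 and 11.9 FPKM at pH 6.3 at 16, 20 and 24 h, against 35.2, 37.4 and 36.9 FPKM at pH 7.4. TCF4, a helix-loop-helix factor that pairs on E-boxes, had 5.28, 7.16 and 9.91 FPKM at pH 6.3 at 28, 32 and 36 h, against 13.2, 18.2 and 23.8 FPKM at pH 7.4. All 3 had groups that did not overlap, with differences at 28 to 36 h of -2.54, -1.66 and -1.20, adjusted p = 0.000126, 0.000893 and 0.00144 by limma. AMOT, a scaffold that holds YAP in the cytoplasm, had -0.77 and -1.06 in the 2 windows, adjusted p = 0.00818 and 0.00203.

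Of genes of DNA synthesis and the cell cycle, the rule leaves out the MCM genes by symbol. Among 50 tested genes of G1/S and replication, 40 were lower and 1 higher over the 6 hours (80% lower, against 35.6% of all genes, with a median of -0.823 against -0.154). E2F1 and DUT are members, 4% of that list, against 1.55% of all expressed genes. Of 40 genes of G2/M and mitosis, 1 was lower and 25 higher, against 35.6% lower and 20.5% higher among all genes. None of the 40 is a member. E2F1, which drives genes of S phase entry, had 4.55, 5.84 and 3.13 FPKM at pH 6.3 at 16, 20 and 24 h, against 13.7, 15.4 and 14.9 FPKM at pH 7.4, a difference of -1.54 ± 0.23 (limma, adjusted p = 0.00153). At 48 h it had 2.84 FPKM against 5.54 FPKM, so its d was above -1 at that hour, in the hour whose pH 7.4 library was low in GC-rich transcripts. DUT, which removes dUTP before it enters DNA, had 38.9, 26.3 and 26.1 FPKM at pH 6.3 at 16, 20 and 24 h, against 96.0, 85.7 and 84.3 FPKM at pH 7.4. It changed between the windows by 0.02 (adjusted p = 0.957).

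KIAA0101, the PCNA-associated factor also called PCLAF, was one of the most abundant members, with 474 FPKM at pH 6.3 against 384 FPKM at pH 7.4 at 4 h and 54.1 FPKM against 228 FPKM at 52 h. Its exons overlap those of AC087632.1 on the same strand. EXO1, a mismatch repair exonuclease, and BARD1 are the members from a list of 63 tested DNA repair genes. Of this list 43 were lower and 5 higher over the 6 hours (68.3% lower, against 35.6% of all genes, with a median of -0.548 against -0.154). BARD1 swung widely between neighbouring hours, with 11.4, 7.83 and 13.7 FPKM at pH 6.3 at 28, 32 and 36 h, against 7.62, 25.7 and 18 FPKM at pH 7.4, and its groups overlapped. CCND1, the G1 cyclin D1, chosen after its values were seen, had differences of -0.46 and -1.46, adjusted p = 0.0601 and 0.000542 by limma.

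Of 6 lysosomal members 5 were called lower at 16 to 24 h and all 6 at 28 to 36 h, and of 10 members of lipid binding and metabolism 9 and 10. FABP7, a fatty acid carrier of glia and progenitor cells, had 9.90, 5.90 and 4.84 FPKM at pH 6.3 at 16, 20 and 24 h, against 8.98, 14.1 and 17.8 FPKM at pH 7.4. At 28, 32 and 36 h it had 5.72, 5.16 and 3.55 FPKM at pH 6.3, against 17.1, 20.8 and 22.3 FPKM at pH 7.4, a difference of -1.87 ± 0.33 (limma, adjusted p = 0.00311). The difference at 16 to 24 h, -0.89 ± 0.33, missed the threshold (limma, adjusted p = 0.0605) and passed it without the 16 h pair or without the hour block. FABP5, a related carrier chosen after its values were seen, had 25.5, 24.5 and 21.2 FPKM at pH 6.3 at 28, 32 and 36 h, against 64.0, 81.5 and 77.4 FPKM at pH 7.4.

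AGA, the lysosomal enzyme that cleaves asparagine from sugar chains, met the late threshold most narrowly and had -0.27 and -0.76 in the 2 windows, adjusted p = 0.324 and 0.0175 by limma, the later call being lost without the 32 h pair (0.107) or the 36 h pair (0.065). LIPA, the lysosomal acid lipase, chosen after its values were seen, had 34.8, 35.0 and 36.5 FPKM at pH 6.3, against 76.4, 104 and 109.7 FPKM at pH 7.4, at 28, 32 and 36 h. ATP13A2, a lysosomal polyamine transporter also named after its values were seen, had 6.23, 7.28 and 7.80 FPKM at pH 6.3, against 126, 70.5 and 63.8 FPKM at pH 7.4, at those hours. The 126 FPKM came from pH 7.4 at 28 h, a library in which GC-rich transcripts were high, and the part of this was not tested. As a whole, the list of 67 tested genes of lysosome, autophagy and mTOR had 20 lower and 15 higher over the 6 hours (29.9% lower, against 35.6% of all genes, with a median of -0.14 against -0.154).

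The group of channels and neuronal receptors held 8 members, all called lower in both windows. ASIC1, a sodium channel opened by extracellular protons, had 3.54, 4.79 and 3.28 FPKM at pH 6.3 at 16, 20 and 24 h, against 6.17, 7.28 and 7.13 FPKM at pH 7.4. At 28, 32 and 36 h it had 2.20, 1.79 and 1.99 FPKM at pH 6.3, against 10.2, 7.86 and 8.43 FPKM at pH 7.4. The groups did not overlap, the differences were -0.70 ± 0.14 and -1.71 ± 0.14 (limma, adjusted p = 0.00637 and 0.000194), and the later window was lower at pH 6.3 itself, with a change of -0.69 (adjusted p = 0.0178). CNIH3, an auxiliary protein of AMPA receptors, and FXYD6, a regulator of the sodium pump, both chosen after their values were seen, had -3.02 and -2.70 at 28 to 36 h, adjusted p = 0.000218 and 0.000179.

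Among other members, HAS2, a hyaluronan synthase, was called lower in the later window, with 2.16, 2.57 and 1.97 FPKM at pH 6.3 at 28, 32 and 36 h, against 7.01, 7.88 and 7.56 FPKM at pH 7.4. The HAS2 difference at 16 to 24 h, -0.43, missed the threshold (limma, adjusted p = 0.124) and passed it without the 16 h pair (0.0193). PAM, the enzyme that amidates peptide hormones, had 51.04 FPKM at pH 6.3 against 212 FPKM at pH 7.4 at 52 h. S100A10, the partner of annexin A2, had 328, 226 and 201 FPKM at pH 6.3 at 16, 20 and 24 h, against 304, 285 and 259.8 FPKM at pH 7.4, overlapping groups, and was called at 28 to 36 h, at -0.91 ± 0.15 (limma, adjusted p = 0.00245), a call lost with the GC correction (0.0554). TMEM106C, a membrane protein, and TMEM14A had differences of -1.02 and -1.86 at 16 to 24 h, adjusted p = 0.00122 and 0.000181. ERVMER34-1, an endogenous retroviral envelope gene, had 1.22, 1.14 and 1.49 FPKM at pH 6.3 at 16, 20 and 24 h, against 7.65, 7.22 and 6.41 FPKM at pH 7.4. FAM198B and LRRCC1, a centrosome protein, had -2.40 and -1.78 in the earlier window, adjusted p = 0.000214 and 0.000213. NABP1, a single-stranded DNA binding protein, and AP1S3, an adaptor of clathrin coats, had -1.33 and -0.84 at 28 to 36 h, adjusted p = 0.000186 and 0.0149, the call of AP1S3 being lost by quantile normalization (0.168) and without the 32 h pair (0.0989) or the 36 h pair (0.0681). TMEM255A, near the level threshold, had -1.25 and -1.81, adjusted p = 0.00193 and 0.000416.

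**Figure D5:**
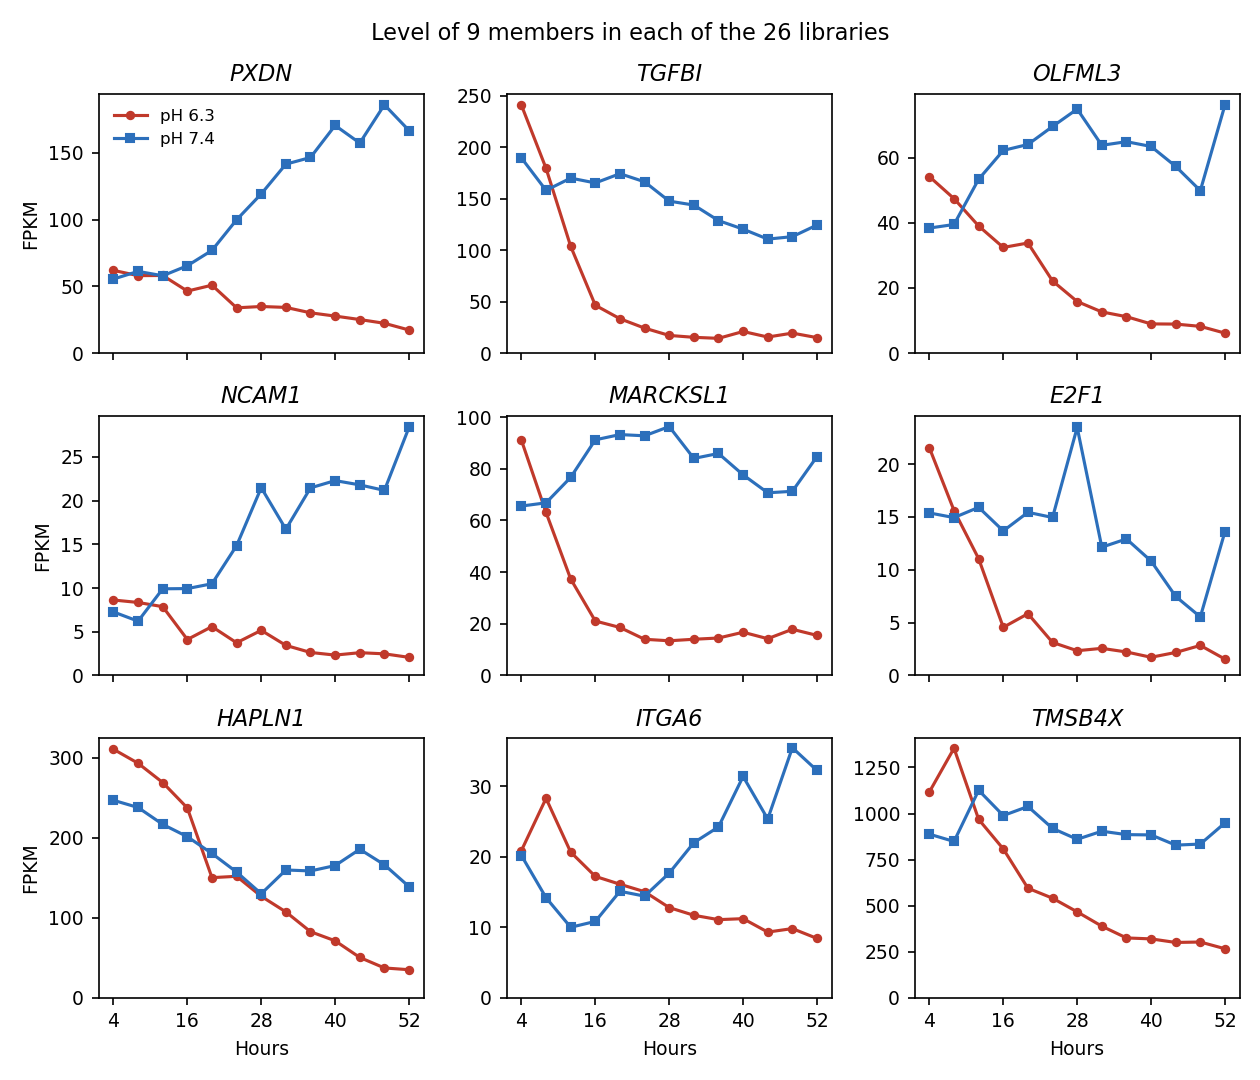
Level in FPKM (vertical axis, from 0, scaled per gene) of 9 members in each of the 13 libraries at pH 6.3 (circles) and 13 at pH 7.4 (squares), by hours after the change of medium. PXDN and NCAM1 rise at pH 7.4 while they fall at pH 6.3. MARCKSL1 is at its acid floor by about 24 h and TGFBI by about 28 h. In HAPLN1 and ITGA6 the lines cross between 16 and 28 h.

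Of 22 tested p53 targets 18 were higher and none lower over the 6 hours by limma. Of 29 tested genes of ATF4 and endoplasmic reticulum stress 20 were higher and 1 lower, and of 20 tested core clock genes 2 were lower and 4 higher. Of all genes tested 20.5% were higher and 35.6% lower, so the core clock genes called higher were near the share of all genes. None of these lists holds a member, and since members are 1.55% of expressed genes, lists of this size would often hold none.

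Members tended to be long genes. The median span from the first to the last annotated base was 74.9 kb in members, 48.9 kb in the 151 genes already lower early and 37.3 kb in all expressed genes, whereas the transcripts were of like length (medians of 3508, 3834 and 3777 bases). Split by span into 4 groups of 2130 expressed genes, members numbered 25, 23, 25 and 59 from the shortest to the longest group, and the 151 numbered 30, 35, 33 and 53. In the longest group 41.8% of all genes were lower over the 6 hours, against 36.2%, 34.1% and 34.4% in the others from the shortest on. Of the members, 11 spanned at least 500 kb (8.33%, against 0.998% of expressed genes and none of the 151), a limit chosen after the spans were seen. They include FHIT and WWOX, genes of common fragile sites. WWOX, an oxidoreductase spanning 1113255 bases of chromosome 16 and named after its values were seen, had 2.87, 1.96 and 2.28 FPKM at pH 6.3 at 28, 32 and 36 h, against 12.7, 9.80 and 12.1 FPKM at pH 7.4. FHIT, a diadenosine triphosphate hydrolase, had 0.536, 0.268 and 0.315 FPKM at pH 6.3, against 3.98, 2.47 and 9.33 FPKM at pH 7.4, at those hours. Its d was -0.597, -1.559 and 1.408 at 4, 8 and 12 h. It thus passed the early threshold only through 12 h, when the pH 7.4 library was shallow. At pH 7.4 FHIT swung from 0.689 FPKM at 12 h to 14.4 FPKM at 52 h. Its lower call at 28 to 36 h (limma, adjusted p = 0.0127) was lost without the 36 h pair (0.073).

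The members were spread over 22 chromosomes, with 17 on chromosome 2 of 618 expressed genes there and 11 on chromosome 5 of 429, and none on chromosome 14 of 297. The median GC content of their transcripts was 44.8%, against 46.7% in all expressed genes. Exons of 24 members overlap those of another coding gene, 11 on the same strand and 14 on the opposite one, among them ACP2 with NR1H3, ENOSF1 with TYMS and RNF43 with SUPT4H1. How strand was treated in the counting is not stated, so the part of the overlapping gene in these values is not known.

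The thresholds cut through a continuous range. PKIA, FHIT and EXO1 stood just inside the early threshold, with a mean early d of -0.25, -0.249 and -0.236, and GTF3A, LUM and CHRNA5 just outside, with -0.253, -0.258 and -0.267. AGA, CXADR and NABP1 stood just inside the late threshold at -1.505, -1.509 and -1.511, and CDCA7, P3H2 and LDLRAD3 just outside at -1.495, -1.491 and -1.486. AP1S3, at 5.04 FPKM, was just above the level threshold and SDPR, at 4.95 FPKM, just below it. BAGE5, a cancer testis gene of a multicopy family, is a member by the rule alone: it was listed at 0 in 21 of 26 libraries and had 55.1 FPKM at pH 6.3 at 4 h, 26.1 FPKM at pH 6.3 at 32 h and 81.9, 27.6 and 22.3 FPKM at pH 7.4 at 12, 44 and 52 h. It was the sole member with any library at 0.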

How the data were processed

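The authors deposited 1 table of FPKM values for 26 libraries of polyadenylated RNA (stranded kit, per the labels' protocols), for which the submitters' processing notes name STAR, Cufflinks and the build hg38. Their versions, the annotation and the strand setting are not stated. FPKM are not counts, so no count test was used. For symbols on several rows the row with the highest mean was kept. The members, the gene lists, the tests and their alternatives were chosen with earlier results of these data known. Values were analysed as log2(FPKM + 1), so folds of low genes are understated. The 11838 genes averaging 1 FPKM or more were tested with limma (version 3.58.1, R version 4.3.3, moderated variances following a trend) on the 12 libraries of 16 to 36 h, with the hour as block because both media of an hour were harvested together, per the labels' protocols. The change within 1 medium was fitted without the block. Both media of an hour did not deviate together (correlations of -0.197 to 0.027 over the 6 hours). Positions and lengths are from GENCODE 29 on GRCh38, promoter windows from RefSeq. The starts can differ, so a window can lie inside the GENCODE span of its gene. The columns sum to 600589 to 700348 FPKM. Depth is an estimate: in 1832 genes, 87.9% to 94.0% of values between 0.5 and 3.5 fragments lay within 0.1 of a whole number. Named genes were the 10 lowest members at 40 to 52 h, the 10 smallest p at 16 to 36 h, the 5 latest to fall, the 6 most abundant, up to 5 members per list and the 3 nearest each threshold, plus genes marked as chosen after their values were seen; ACP2, ANXA3, CCL24, ENOSF1, EVI2A, ITGB8, PCDHB5, ST6GALNAC5 and XYLB were also singled out after their values were seen. A few named items are not reported here. The fit was tested on simulated data. Alternatives were another pseudocount, no filter, upper-quartile and quantile scaling, a correction for GC content, no hour block, leaving out each hour and leaving out the libraries with a strong GC trend.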

Additional observations from a re-analysis of the deposited data

Results flagged for a closer look

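In BAGE5 the difference between media at 32 h, 4.76 on the log2 scale, stood far from the other 5 hours between 16 and 36 h, where both media were at 0. By chance about 1 in 20 groups is marked in this way. BAGE5 belongs to a family of near-identical copies, among which fragments may be split.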

How the results depend on the processing

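The counts of members lower at pH 6.3 kept their size under every alternative run: 118 to 126 over the 6 hours, 86 to 107 at 16 to 24 h and 121 to 130 at 28 to 36 h. ITGA6 alone made 1 member higher at 16 to 24 h, with the correction for GC content. Scaling moved the median of all genes from -0.15 to -0.01 over the 6 hours by quantile normalization and that of members from -1.38 to -1.22; higher genes made up 36.6% of calls as deposited, 49.3% by quantile normalization and 50.5% with the GC correction. The growth of the difference between windows was called in 0 members with the hour block and in 15 with no replicate block (pairing of media by hour); it was called in 1 with the GC correction and in 0 to 12 with an hour left out. The later window at pH 6.3 was lower in 18 members with no filter, 53 with the GC correction and 0 to 53 with an hour left out, and higher in 0 to 1 with an hour left out and in 1 without pH 6.3 at 20 h and pH 7.4 at 28 h. At pH 7.4 it was higher in 10 members without those libraries. A block by hour cannot be fitted within 1 medium and was not run. The rule took 249 genes, 125 of the members among them, when 8 and 12 h, each with a shallow library, were left out. Under the other settings it took 132 to 170, and with the GC correction 102 of the members were among those taken. Of 2730 single-gene values under alternatives, 2631 kept direction and call, 76 lost the call, 12 gained it and 11 reversed: at 16 to 24 h BARD1 (0.29 without the 20 h pair, and 0.29 without the libraries with a strong GC trend), HAPLN1 (0.11 by upper-quartile scaling, 0.16 with the GC correction, and 0.093 without the 20 h pair or those libraries) and NTM (0.066 by upper-quartile scaling, 0.069 by quantile normalization, 0.12 with the GC correction, 0.14 without the 24 h pair), and at 28 to 36 h BARD1 (0.08 without the 32 h pair). None of these was called. The cause was not tested. With 1 library per medium and hour, a gene called in no window is not shown to be level between media.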
